A study of Mus musculus with 6 samples.

Results

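This account concerns 8 genes of GABA-A receptor subunits in single nuclei of the mouse forebrain: Gabra2, Gabra3, Gabra4 and Gabra5 (α subunits), Gabrb1 and Gabrb2 (β subunits), Gabrg1 (a γ subunit) and Gabrd (the δ subunit). The genes were chosen by symbol, and all 8 were found among the 32285 gene rows of the count matrix, which also holds 11 other GABA-A subunit genes. Nuclei came from flash-frozen forebrains of 3 WT and 3 Npc1-/- littermates, all untreated and taken at postnatal day 16 and profiled by 10x Genomics single-nucleus RNA-sequencing (snRNA-seq). The Npc1-/- mice carry the nih null allele of Npc1, whose product exports cholesterol from lysosomes, on a hybrid background of BALB/cJ and C57BL6/J.

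A GABA-A receptor is a ring of subunits around a chloride pore, usually built of α and β subunits with a γ or the δ subunit. GABA binds between α and β subunits. Many receptors with a γ subunit gather at synapses, whereas receptors with δ, often joined to α4, sit outside synapses and carry a tonic current. The α5 subunit is known for tonic inhibition in the hippocampus. Astrocytes and oligodendrocyte progenitor cells (OPCs) carry GABA-A receptors too.

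The 6 libraries held 8217 to 16118 barcodes and 51343653 to 107583300 unique molecular identifiers (UMIs, 1 per captured transcript molecule). Because no source ties a library to a mouse, genotypes were not compared, each level pools both, and libraries are given singly or as lowest, median and highest. A total of 631 of 75245 barcode sequences occurred in more than 1 library. The 75867 nuclei kept were clustered without any GABA-A gene. Fixed markers named 23 classes, 6 unnamed neuron clusters are called by their leading gene, and 35.7% of nuclei had no named class. Of its 6 markers the upper-layer class was the highest class for Cux2 alone, and the neuroblast class for Dcx and Sp8. Library 3 held 801 of the 1773 neuroblast-like nuclei.

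A level is given in CPM, which is the UMIs of a gene per 1000000 UMIs of all genes over the nuclei of a class, with an exact 95% Poisson interval. All intervals cover counting error only, and no p-value is given because nuclei are not replicates. Levels are compared for 1 gene across classes, not between genes. Neuronal RNA was found in every class: Snap25, a synaptic gene, stood at 603.5 CPM in microglia-like nuclei, at 581 to 1022 CPM in the named mature neuron classes and at 356 to 563 CPM in the other non-neuronal classes. The microglia-like level of each gene is given as a reference. It is a high one, with more Snap25 than the other non-neuronal classes and than the Drd1 striatal neuron-like class, and free RNA was not measured within the other classes. A level at or under it is therefore read neither as expression nor as absence.

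Of the 8 genes, 4 lie in a row on chromosome 5 (GENCODE vM21, GRCm38). Gabrg1 spans 70751047 to 70842617, Gabra2 70957597 to 71095849 and Gabra4 71569749 to 71658308, all on the minus strand. Gabrb1 spans 71658113 to 72149037 on the plus strand, and its 5′ end overlaps that of Gabra4 by 196 bases. Gabrb1 also shares 19557 bases with the antisense gene Gm38562. The Gabra5 gene occupies 57407672 to 57510059 of chromosome 7 (minus strand), with 2270 of its 102388 bases under the antisense gene Gm9962. Gabrb2 occupies 42419757 to 42629028 of chromosome 11 (plus strand), Gabra3 72432681 to 72656848 of chromosome X (minus strand) and Gabrd 155384980 to 155398112 of chromosome 4 (minus strand). As no source used here states whether counting used strand, reads of Gabra5, Gabra4 and Gabrb1 in overlapping stretches are uncertain.

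The promoter windows of the chromosome 5 genes are shown because these neighbours differed in their pattern across classes. Each is a RefSeq window (GRCm38.p6) of 300 bases ending 50 bases past a RefSeq start site, 5′ to 3′ on the strand of the gene, at chr5:70842568-70842867 (minus) for Gabrg1, chr5:71095800-71096099 (minus) for Gabra2, chr5:71658259-71658558 (minus) for Gabra4 and chr5:71657671-71657970 (plus) for Gabrb1. Capitals mark promoter motifs that a search of both strands found, namely the GC box of letters GGGCGG and the CCAAT box of the letters in its name.
Gabrg1: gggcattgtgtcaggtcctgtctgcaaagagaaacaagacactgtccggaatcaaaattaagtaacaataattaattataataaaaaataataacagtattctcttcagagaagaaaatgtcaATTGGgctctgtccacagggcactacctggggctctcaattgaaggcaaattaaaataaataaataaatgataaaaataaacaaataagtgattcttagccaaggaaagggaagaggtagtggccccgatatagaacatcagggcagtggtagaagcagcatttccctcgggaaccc
Gabra2: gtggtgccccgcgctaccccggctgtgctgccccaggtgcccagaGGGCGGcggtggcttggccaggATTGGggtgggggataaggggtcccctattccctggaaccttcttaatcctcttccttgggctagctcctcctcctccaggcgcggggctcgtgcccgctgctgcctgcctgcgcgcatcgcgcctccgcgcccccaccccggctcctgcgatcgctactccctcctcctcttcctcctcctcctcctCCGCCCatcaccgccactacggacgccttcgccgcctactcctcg
Gabra4: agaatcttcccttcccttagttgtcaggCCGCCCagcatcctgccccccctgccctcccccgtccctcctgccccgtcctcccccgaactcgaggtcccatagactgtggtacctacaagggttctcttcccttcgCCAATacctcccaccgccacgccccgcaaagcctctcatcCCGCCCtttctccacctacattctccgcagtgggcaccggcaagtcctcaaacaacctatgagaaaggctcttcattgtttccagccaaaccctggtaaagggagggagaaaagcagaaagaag
Gabrb1: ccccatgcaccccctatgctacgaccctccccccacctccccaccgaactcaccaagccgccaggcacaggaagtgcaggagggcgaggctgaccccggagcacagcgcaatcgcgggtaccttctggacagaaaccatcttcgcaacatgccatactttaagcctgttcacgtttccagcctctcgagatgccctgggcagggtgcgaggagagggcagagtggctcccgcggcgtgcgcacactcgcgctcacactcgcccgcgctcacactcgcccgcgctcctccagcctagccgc
The TATA box, searched as TATAAA, and the cAMP response element, searched as TGACGTCA, were in none of the 4 windows. The Gabra2 and Gabra4 windows held 2 GC boxes and 1 CCAAT box each, the Gabrg1 window 1 CCAAT box, and the Gabrb1 window none of these letters. Of all 32851 windows in the table, 35.7% held a GC box, 37.4% a CCAAT box, 13.6% a TATA box and 1.79% a cAMP response element. The dinucleotide CG occurred 25 times in the Gabra2, 25 times in the Gabrb1, 12 times in the Gabra4 and 3 times in the Gabrg1 window, against a median of 7 over all windows. The Gabrb1 window belongs to a RefSeq start at 71657921, upstream of the GENCODE start of the gene, and a second RefSeq start at 71699932 has a window with 9 CG dinucleotides. Windows were found for 7 of the 8 members, all but Gabrd.

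**Figure D1:**
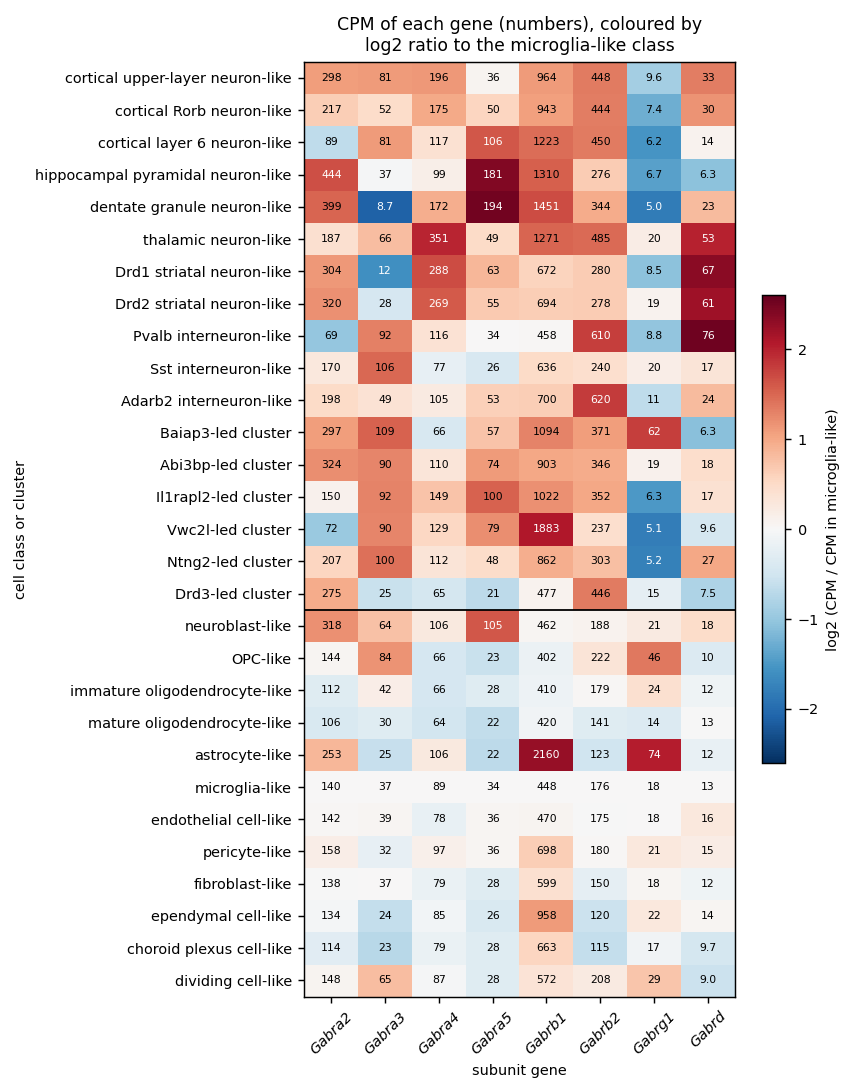
Levels of the 8 subunit genes (columns) in 23 named classes and 6 unnamed neuron clusters (rows). Numbers are CPM over all nuclei of a class, and colour is the log2 ratio to the microglia-like class. Gabrb1 and Gabrg1 are highest in astrocyte-like nuclei, Gabra4 in thalamic neuron-like nuclei and Gabrd in Pvalb interneuron-like nuclei.

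Gabra2, the α2 gene, was highest in hippocampal pyramidal neuron-like nuclei, at 444.5 CPM (434 to 456), with 386, 449 and 480.2 CPM in the lowest, median and highest library. Dentate granule neuron-like nuclei followed at 399 CPM (383 to 416). All libraries of both classes lay above the microglia-like libraries, which ran from 77.5 to 189 CPM around a level of 139.9 CPM. The Abi3bp-led cluster (324.5 CPM) and the Drd2 striatal neuron-like class (320.2 CPM) came next and did not differ beyond counting error. In the cortex Gabra2 stood at 298 CPM in upper-layer, 217 CPM in Rorb and 88.9 CPM in layer 6 neuron-like nuclei. In 6 of 6 libraries the upper-layer level exceeded that of layer 6, by 1.74 (1.68 to 1.81) on the log2 scale. The Pvalb interneuron-like class was lowest of all types, at 69.3 CPM (63.7 to 75.2), and under the microglia-like level in every library. It was not resolved from the Vwc2l-led cluster, at 72.05 CPM.

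Gabra4, the α4 gene, was highest in thalamic neuron-like nuclei, at 351 CPM (342 to 360.3), with libraries from 340.1 to 370.5 CPM and a median of 343.5 CPM. Drd1 and Drd2 striatal neuron-like nuclei had 288 CPM (278 to 297) and 269 CPM (259.9 to 277.5). These 3 classes stood apart from the other named mature neurons, since their lowest library had 237 CPM and the highest library of the others 214 CPM. Across the cortical classes Gabra4 ran from 196 CPM in the upper-layer to 117 CPM in the layer 6 class (log2 ratio 0.75, 0.68 to 0.81). Sst interneuron-like nuclei, at 76.7 CPM, did not exceed the microglia-like level of 89.04 CPM.

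Gabra5, the α5 gene, was highest in the hippocampal formation, at 194 CPM (183 to 206) in dentate granule and 181 CPM (174 to 188) in hippocampal pyramidal neuron-like nuclei. Their libraries, 169 to 209 and 163 to 217 CPM, overlapped, and these neighbours in the order were not resolved. Layer 6 neuron-like nuclei came next at 106 CPM (102 to 110.1). In the cortex Gabra5 ran opposite to Gabra2 and Gabra4, with 35.8 CPM in the upper-layer class and an upper-layer over layer 6 log2 ratio of -1.56 (-1.66 to -1.46), below 0 in 6 of 6 libraries. The upper-layer level was close to the microglia-like 34.3 CPM.

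Gabra3, the α3 gene, was highest in the Baiap3-led cluster (109 CPM, 106 to 112), followed by Sst interneuron-like nuclei (105.5 CPM, 97.9 to 114), the Ntng2-led cluster (100.4 CPM) and Pvalb interneuron-like nuclei (92.2 CPM, 85.8 to 99.01). No neighbours in this order were resolved. Sst interneuron-like libraries ran from 83.5 to 135 CPM with a median of 104 CPM. At the low end, dentate granule neuron-like nuclei had 8.72 CPM and Drd1 striatal neuron-like nuclei 12.3 CPM, both under the microglia-like level of 37.4 CPM in every library. The Drd1 over Drd2 log2 ratio of Gabra3 was -1.17 (-1.45 to -0.90), below 0 in 6 of 6 libraries, although the Drd2 level of 27.8 CPM was also under the microglia-like level. The largest Drd1 and Drd2 subclusters had 12.5 and 22.1 CPM, and the smaller Drd2 subcluster 38.1 CPM.

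**Figure D2:**
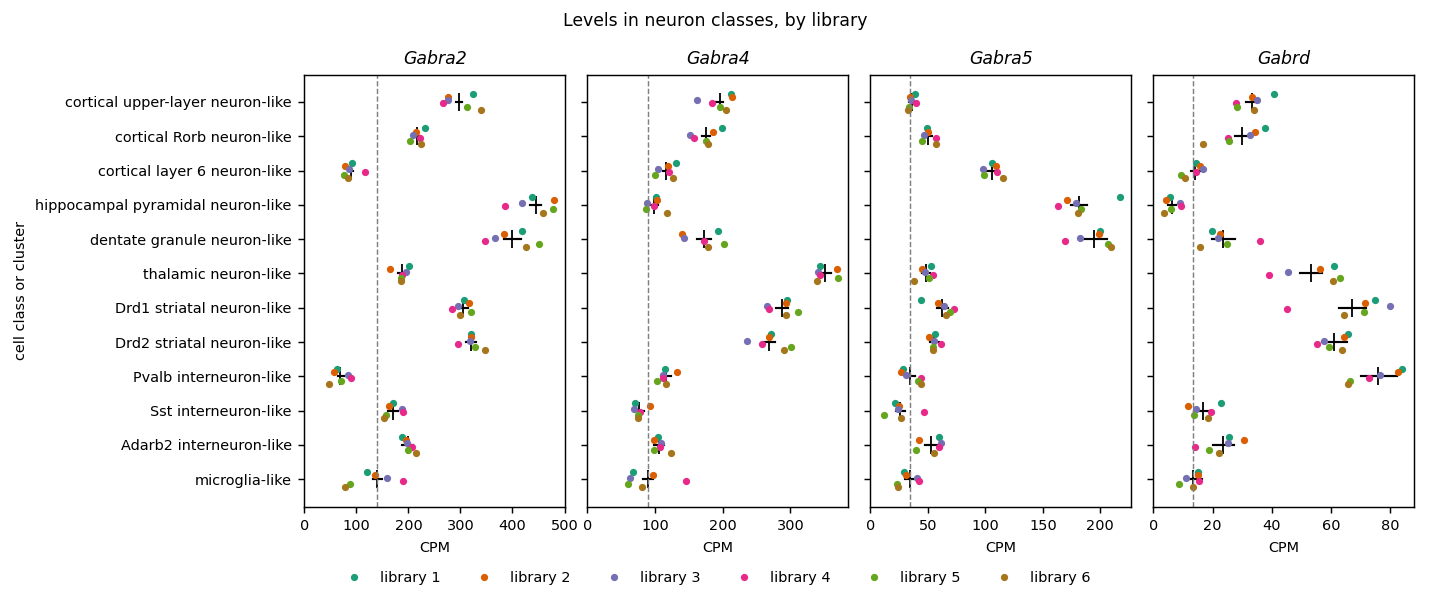
Levels of Gabra2, Gabra4, Gabra5 and Gabrd (horizontal axes, CPM) in named neuron classes and microglia-like nuclei. Coloured points are the 6 libraries, black ticks and lines the level over all nuclei with its exact 95% Poisson interval, and the dashed line the microglia-like level. For Gabra4 every library of the thalamic and striatal classes is at or above 237 CPM.

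Gabrb1, the β1 gene, was highest outside neurons. Astrocyte-like nuclei had 2160 CPM (2144 to 2176) with libraries from 1941 to 2645 CPM, and the lowest of these exceeded every library of the named mature neuron classes. The Vwc2l-led cluster was nearest, at 1883 CPM (1838 to 1929). Among named mature neurons the level ran from 1451 CPM in dentate granule to 458 CPM in Pvalb interneuron-like nuclei, the latter close to the microglia-like 448 CPM. Ependymal cells line the ventricles, and ependymal cell-like nuclei had 957.5 CPM (931 to 985). OPC-like nuclei had 402 CPM (390.3 to 413), which was not resolved from the immature oligodendrocyte-like class and exceeded the microglia-like level in 2 of 6 libraries.

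Gabrb2, the β2 gene, was highest in interneurons, at 620.3 CPM (602.5 to 638.5) in Adarb2 and 609.7 CPM (593 to 627) in Pvalb interneuron-like nuclei, which were not resolved from each other. Sst interneuron-like nuclei had 239.5 CPM (228 to 251), less than the Pvalb class by 1.35 on the log2 scale (1.27 to 1.43) and in 6 of 6 libraries. The cortical excitatory classes could not be told apart, at 448, 444 and 450.5 CPM in upper-layer, Rorb and layer 6 neuron-like nuclei. By counting intervals Gabrb2 exceeded the microglia-like level of 176 CPM in 17 of 17 neuron types. Sst interneuron-like nuclei and the Vwc2l-led cluster did so in 5 of 6 libraries each. Astrocyte-like nuclei, at 123 CPM, were under it in every library.

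Gabrg1, the γ1 gene, was under the microglia-like level in most neuron types. Astrocyte-like nuclei led with 73.7 CPM (70.7 to 76.7) and libraries from 56.7 to 119.8 CPM, followed by the Baiap3-led cluster with 62.04 CPM (59.7 to 64.4) and OPC-like nuclei with 46.1 CPM (42.3 to 50.1). Each of the 3 exceeded the microglia-like level of 17.8 CPM in 6 of 6 libraries. The Baiap3-led cluster was the only 1 of 17 neuron types resolved above that level, and 11 were resolved below it. The Drd1 class, at 8.51 CPM, was under the Drd2 class, at 18.9 CPM, with a log2 ratio of -1.16 (-1.50 to -0.82) in the same direction in 6 of 6 libraries. Among the named subclusters it lay in 1 of them: the largest Drd1 and Drd2 subclusters had 8.17 CPM (6.58 to 10.03) and 8.88 CPM (7.004 to 11.1), and the smaller Drd2 subcluster of 655 nuclei, led by Unc5d, had 37.5 CPM (32.1 to 43.4). A subcluster of 814 nuclei, nearest to Drd1 by its markers but short of the naming limit, had 24.8 CPM (20.9 to 29.2) of Gabrg1 and 37.5 CPM of Gabra3.

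Gabrd, the δ gene, was highest in Pvalb interneuron-like nuclei at 75.9 CPM (70.04 to 82.1), with libraries from 65.5 to 84.1 CPM. The Pvalb class exceeded the Drd1 striatal class, next in the order, in 4 of 6 libraries. Drd1 striatal (67.03 CPM), Drd2 striatal (60.96 CPM) and thalamic neuron-like nuclei (53.1 CPM) followed, and the Drd1 and Drd2 classes were not resolved from each other. Every library of these 4 classes, from 39.2 CPM upward, lay above the microglia-like libraries, which ended at 15.4 CPM. Within the hippocampal formation, dentate granule neuron-like nuclei had 23.5 CPM (19.8 to 27.7) and hippocampal pyramidal neuron-like nuclei 6.33 CPM (5.09 to 7.79), the latter under the microglia-like level in every library. The Adarb2 class had 23.5 CPM. The Pvalb class exceeded the Sst class, at 16.7 CPM, by a log2 ratio of 2.18 (1.89 to 2.48), and the upper-layer class exceeded the layer 6 class, at 33.3 and 14.04 CPM, by 1.25 (1.06 to 1.43), each in 6 of 6 libraries.

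Broad classes were compared by the log2 ratio of CPM with an exact 95% interval from the split of the UMIs. The cortical excitatory class joined the upper-layer, Rorb and layer 6 classes (8545 nuclei) and held none of the unnamed neuron clusters. A gene was called at a ratio of at least 2-fold that kept its direction in 6 of 6 libraries, among genes of at least 20 CPM in either class, so that a gene low in 1 class passes through the other. For interneuron-like over cortical excitatory neuron-like nuclei the call was met by 7.62% of tested genes upward, 5.38% downward and by none of the 8 members, of which Gabrg1 was under the minimum. Gabrb1 was lower in interneurons, at 580.5 against 1033 CPM (log2 ratio -0.83, -0.86 to -0.81), as was Gabra4, at 98.7 against 166 CPM (-0.75, -0.82 to -0.69), in 6 of 6 libraries each. Gabra5 was also lower in 6 of 6 libraries, at 38.1 against 60.7 CPM (-0.67, -0.77 to -0.57). On the cortical side Gabra5 had 106 CPM in layer 6 but 35.8 CPM in upper-layer nuclei, which Adarb2 interneuron-like nuclei exceeded at 52.8 CPM. Gabrd was higher, at 42.9 against 26.6 CPM (0.69, 0.58 to 0.80), and Gabra2 lower (-0.58), but giving every cluster the class of its highest marker score, with no naming limits, turned these ratios to -0.18 and 0.064. That setting counted the Baiap3-led cluster (5326 nuclei, Gabrd 6.27 CPM, Gabra2 297 CPM) as interneurons. The interneuron class then had 8687 nuclei instead of 3028, and the part of that cluster in the changes was not tested. The small ratios of Gabra3 (0.15) and Gabrb2 (0.13) turned to -0.037 and -0.066 when class sums were rescaled by trimmed mean of M values (TMM). Interneuron-like classes also differed among themselves. Gabrd had 75.9 CPM in Pvalb, 23.5 CPM in Adarb2 and 16.7 CPM in Sst, against 33.3 CPM in upper-layer and 29.8 CPM in Rorb nuclei. Gabrb2 had 620.3 CPM in Adarb2 and 609.7 CPM in Pvalb but 239.5 CPM in Sst, against 444 to 450.5 CPM in the cortical classes.

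For striatal projection neuron-like over cortical excitatory neuron-like nuclei the call was met by 7.33% of genes upward and 7.31% downward, and of the members Gabrd was called higher and Gabra3 lower. Gabrd stood at 60.4 against 26.6 CPM, a log2 ratio of 1.18 (1.09 to 1.27) with libraries from 1.05 to 1.47. Gabra3 stood at 29.6 against 71.9 CPM, a log2 ratio of -1.28 (-1.37 to -1.19), with the striatal level under the microglia-like level. Within the striatal class a subcluster of 280 nuclei, short of the naming limit, had 113.8 CPM (99.67 to 129.3). Gabra4 (0.61, 0.57 to 0.65) and Gabra2 (0.56, 0.52 to 0.59) were higher and Gabrb1 (-0.64) and Gabrb2 (-0.67) lower in striatal neurons in 6 of 6 libraries, short of 2-fold. The Gabra5 ratio of -0.086 was below 0 in 5 libraries and above it in 1, and its interval reached 0 without library 1 (-0.059), library 2 (-0.067) or library 6 (-0.066). Gabrg1 was under the minimum, at 15.5 against 7.90 CPM.

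**Figure D3:**
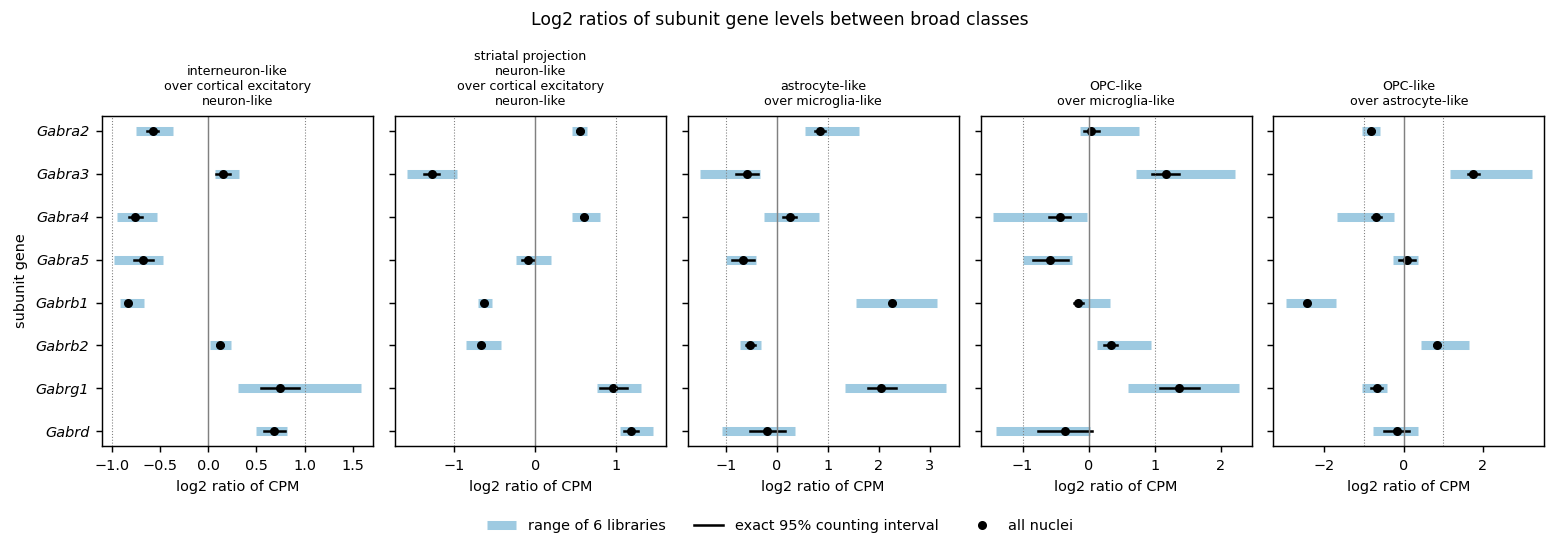
Log2 ratio of CPM between broad classes for the 8 subunit genes (rows) in 5 comparisons (panels). Points are all nuclei, black lines exact 95% counting intervals, blue bars the range of the 6 libraries and dotted lines 2-fold. Gabrb1 and Gabrg1 in astrocyte-like, and Gabra3 and Gabrg1 in OPC-like nuclei, lie beyond 2-fold over microglia-like nuclei.

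Among glia, astrocyte-like nuclei exceeded microglia-like nuclei by the call in Gabrb1 and Gabrg1, beside 11.1% of tested genes upward and 11.5% downward. Gabrb1 had a log2 ratio of 2.27 (2.22 to 2.32) with libraries from 1.55 to 3.15, and Gabrg1 of 2.05 (1.78 to 2.33) with libraries from 1.34 to 3.33. Gabrg1 passed the minimum through the astrocyte-like class alone. In microglia-like nuclei library 4 was the highest library for 7 of the 8 genes, with Gabrb1 at 664 CPM, and its part in the spread of these ratios was not tested. Gabra2 was higher by 0.85 (0.76 to 0.95) in 6 of 6 libraries. Gabra3 (-0.59, -0.80 to -0.38), Gabra5 (-0.67, -0.89 to -0.45) and Gabrb2 (-0.52, -0.61 to -0.42) were lower in 6 of 6 libraries, and Gabrd was under the minimum. Gabra4 had a ratio of 0.25 (0.13 to 0.38), above 0 in 5 libraries, and its interval reached 0 without library 3 (0.096). With every cluster named, the Gabra4 ratio was near 0. Of the 2 astrocyte-like clusters, the larger (6232 nuclei) had more Gabra2 (278 against 182 CPM) and Gabrb1 (2261 against 1871 CPM) than the smaller (2064 nuclei), and less Gabrg1 (69.7 against 85.1 CPM).

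OPC-like nuclei exceeded microglia-like nuclei by the call in Gabra3 and Gabrg1, beside 8.62% of tested genes upward and 12.9% downward. Gabra3 stood at 83.9 against 37.4 CPM (1.17, 0.96 to 1.37). Gabrg1, which passed the minimum through the OPC-like class alone, stood at 46.1 against 17.8 CPM (1.38, 1.08 to 1.68). Gabrb2 was higher by 0.33 (0.23 to 0.43) in 6 of 6 libraries, but at -0.071 with every cluster named. Gabra4 (-0.44) and Gabra5 (-0.58) were lower in every library, but Gabra5 was at -0.055 with an interval across 0 at clustering resolution 0.5. The Gabrb1 ratio of -0.16 turned to 0.11 with TMM, 0.074 with median-of-ratios scaling and 0.20 at resolution 0.5, so its direction is not settled. The interval of Gabra2 held 0 (-0.074 to 0.16). The Gabra2 ratio was above 0 with TMM and below 0 with every cluster named, so its direction is not settled either. Gabrd was under the minimum. Against astrocyte-like nuclei, where 7.13% of genes were called upward and 10.1% downward, OPC-like nuclei were called higher in Gabra3 (1.76, 1.62 to 1.90) and lower in Gabrb1 (-2.43, -2.47 to -2.38). Gabrb2 was higher short of 2-fold (222 against 123 CPM, 0.85, 0.78 to 0.93), and Gabra2 (-0.81), Gabra4 (-0.69) and Gabrg1 (-0.68) were lower, in 6 of 6 libraries each. The interval of Gabra5 held 0 (-0.11 to 0.30), and Gabrd was under the minimum.

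Libraries shared the oligodendrocyte lineage unequally, with 737, 836 and 481 mature nuclei in libraries 1, 2 and 5 and 156, 165 and 101 in libraries 3, 4 and 6, so medians over libraries are given too. Along it Gabra3 stood at 83.9 CPM in OPCs, 41.96 CPM in the immature and 29.9 CPM in the mature oligodendrocyte-like class, with library medians of 85.03, 44.8 and 30.8 CPM. Gabrg1 stood at 46.1, 23.9 and 13.9 CPM in the same order, with library medians of 46.5, 24.2 and 13.5 CPM. Each step was downward in 6 of 6 libraries for both genes, with OPC over mature log2 ratios of 1.49 (1.33 to 1.64) and 1.73 (1.51 to 1.96), and both mature levels were under the microglia-like level. The immature Gabra3 level was not resolved from the microglia-like level (0.17, -0.07 to 0.40). Gabrb2 had smaller differences, at 222, 179 and 141 CPM, with an OPC over mature log2 ratio of 0.65 (0.57 to 0.73) above 0 in 6 of 6 libraries. The immature Gabrb2 level was not resolved from the microglia-like 176 CPM, and the mature level was under it. Gabra2 stood at 144, 112 and 106 CPM (0.44, 0.34 to 0.54), above 0 in 5 libraries. Its OPC level was not resolved from the microglia-like 139.9 CPM, and its immature and mature levels were under it. Gabra4 differed by less than counting error, at 65.7, 65.8 and 63.7 CPM. Gabra5 (23.02, 27.7 and 21.97 CPM), Gabrb1 (402, 410.1 and 420.0 CPM) and Gabrd (10.3, 12.2 and 13.2 CPM) were not highest in OPCs. Their levels over all libraries were under the microglia-like levels, but for Gabrd no class of the lineage was resolved from microglia-like nuclei. Mature oligodendrocyte-like nuclei exceeded microglia-like nuclei in 4 of 6 libraries for Gabrb1 and 3 of 6 for Gabrd. Immature nuclei did so in 3 of 6 for Gabrb1 and 2 of 6 each for Gabra5 and Gabrd.

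**Figure D4:**
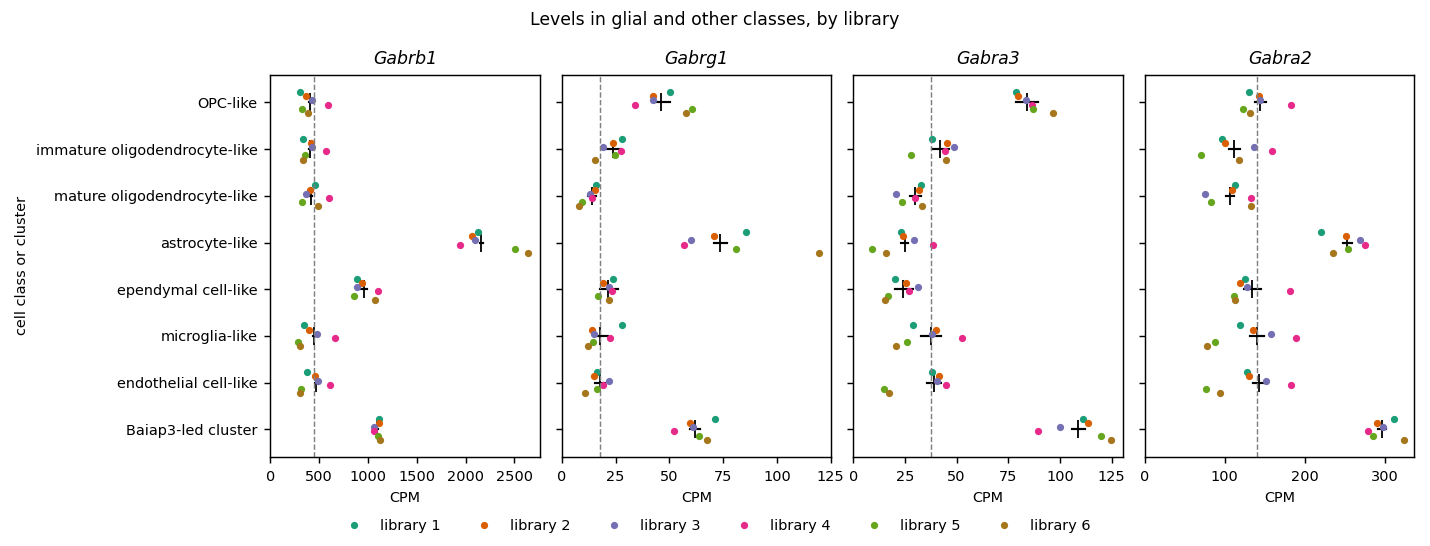
Levels of Gabrb1, Gabrg1, Gabra3 and Gabra2 (horizontal axes, CPM) in glial, ependymal cell-like and endothelial cell-like nuclei and the Baiap3-led cluster. Coloured points are the 6 libraries, black ticks and lines the level over all nuclei with its exact 95% Poisson interval, and the dashed line the microglia-like level. Gabra3 in OPC-like nuclei lies between 78.7 and 96.5 CPM, above the microglia-like libraries, which end at 52.4 CPM.

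Since median depth ranged from 2276.5 UMIs in microglia-like to 9820 in thalamic neuron-like nuclei, the share of nuclei with a UMI was also taken after thinning each nucleus to 2000 UMIs, which left out 967 microglia-like, 947 astrocyte-like, 435 OPC-like, 13 Pvalb and 4 hippocampal pyramidal nuclei. Gabrg1 was seen in 13.01% (12.2 to 13.8, exact binomial interval) of astrocyte-like, 8.81% (7.82 to 9.89) of OPC-like and 3.00% (2.24 to 3.94) of microglia-like nuclei, and in 21.6%, 14.04% and 4.07% before thinning. Gabra3 was seen in 14.5% of OPC-like and 7.63% of microglia-like nuclei, against 22.2% and 8.32% before. Gabrd was seen in 12.4% of Pvalb interneuron-like and 2.34% of microglia-like nuclei, against 39.7% and 3.19% before. Gabra5 was seen in 26.1% of hippocampal pyramidal neuron-like and 6.79% of microglia-like nuclei, against 66.7% and 7.60% before.

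Over the 28 pairs of members, the Pearson correlation of log2(CPM + 1) across the 23 named classes ran from -0.68 for Gabra5 with Gabrg1 to 0.79 for Gabra4 with Gabrd, and these pairs had -0.43 and 0.75 across the 17 neuron types. Gabrb2 with Gabrg1 came next at the low end, at -0.60 across classes and 0.07 across neuron types. Across neuron types Gabra5 with Gabrb1 was close to Gabra4 with Gabrd, at 0.72 (0.41 across classes). The lowest pair across neuron types was Gabra2 with Gabra3 (-0.54, and -0.38 across classes). The head-to-head neighbours Gabra4 and Gabrb1, whose windows are printed above, had 0.46 and 0.19. These are descriptions, since the classes share libraries and free RNA.

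Outside the family, among 11838 genes, the patterns most like Gabra2 over the named classes were those of Inhba (0.88), Jph4 (0.79) and Scn3b (0.79). For Gabra3 they were Lnx1 (0.86), Elavl4 (0.83) and Vsnl1 (0.80), for Gabra4 Dgki (0.87), Gm1043 (0.84) and Rnf207 (0.82), and for Gabra5 Prkce (0.89), Pde4a (0.87) and Msra (0.86). For Gabrb1 they were Cry2 (0.81), Gm37107 (0.79) and Trim9 (0.75), and for Gabrb2 Rimbp2 (0.91), Rims1 (0.90) and Mir124a-1hg (0.90), of which Rimbp2 and Rims1 are presynaptic active zone genes. For Gabrg1 they were Cyp2j9 (0.86), Car8 (0.85) and Gpld1 (0.85), and for Gabrd Cntn5 (0.87), Cyp46a1 (0.86) and Stk32c (0.83), of which Cyp46a1 encodes cholesterol 24-hydroxylase. Within single libraries these values went down to 0.43.

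Among the other GABA-A subunit genes Gabrg3, a γ subunit gene, was called higher in interneuron-like (2256 against 974 CPM) and in striatal projection neuron-like (2538 against 974 CPM) over cortical excitatory neuron-like nuclei. It was called in none of the 3 glial comparisons, at 347 against 394 CPM in astrocyte-like and microglia-like nuclei.

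Among the genes for GABA synthesis, transport and breakdown, Gad1 (196 against 13.9 CPM) and Gad2 (322 against 19.7 CPM), which make GABA, Slc32a1, the vesicular transporter (23.7 against 5.78 CPM), and Abat, which degrades GABA (183 against 41.3 CPM), were called higher in interneuron-like over cortical excitatory neuron-like nuclei. The same 4 genes were called higher in striatal over cortical nuclei, with Gad1 at 109.6 and Abat at 279 CPM in the striatal class. Such genes help to form the clusters, so this is a description. Of them, Gad1, Gad2 and Slc32a1 were under the minimum in cortical nuclei and passed it through the other class alone. The 7 members tested had a median log2 ratio of -0.58 and -0.086 in these comparisons, and all tested genes 0.14 and 0.091. In astrocyte-like over microglia-like nuclei Slc6a11, a GABA uptake transporter (376 against 38.4 CPM), and Abat (232 against 66.2 CPM) were called higher. Both GABA-B receptor genes, Gabbr1 (240.1 against 115 CPM) and Gabbr2 (441 against 152 CPM), were called higher in astrocyte-like nuclei, and Gabbr2 lower in striatal neurons (107.5 against 583 CPM).

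Of the 11 anchoring and auxiliary genes 10 were tested between interneuron-like and cortical excitatory neuron-like nuclei, and none was called. Of all tested genes 7.62% were called upward and 5.38% downward in that comparison. In striatal neurons Insyn1 was called higher (22.5 against 10.1 CPM) and Iqsec3 (28.3 against 65.2 CPM) and Dmd, the dystrophin gene (615 against 1453 CPM), lower. In OPC-like over microglia-like nuclei Nlgn2, a neuroligin of inhibitory synapses (63.7 against 26.7 CPM), Insyn2a (55.3 against 18.8 CPM) and Dmd (1269 against 527 CPM) were called higher, and Insyn2a also in astrocyte-like nuclei (70.9 CPM). Shisa7 was called higher in OPC-like over astrocyte-like nuclei (42.1 against 17.8 CPM). Insyn1, Insyn2a and Shisa7 passed the minimum through the higher class alone. Gphn, the gephyrin scaffold gene, was called in none of the 5 comparisons. Of the chloride transporters Slc12a2 was called lower in astrocyte-like (49.7 against 167 CPM) and OPC-like (82.4 CPM) than in microglia-like nuclei, and Slc12a5 in none.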

How the data were processed

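Forebrain nuclei of 3 WT and 3 Npc1-/- mice were profiled by snRNA-seq. Per the file headers, the deposited matrix holds raw UMI counts written by Cell Ranger 6.0.0, with 6 libraries joined by the authors, whereas the submitters' processing notes name Cell Ranger 2.1.1 and mm10. The study's methods describe another aligner, filters and imputation, and no source used here states how these relate to the matrix or whether intronic reads were counted. Library totals ran from 51343653 to 107583300 UMIs.

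Nuclei with a mitochondrial share of 10% or more were left out (11 nuclei). Log-normalized counts of 3000 variable genes, without Gabr genes, gave 30 principal components and 20 neighbours for Leiden clustering (leidenalg 0.10.2, resolution 1, 45 clusters). A cluster was named from fixed markers at a score of at least 1, a lead of 0.25 and 4 markers enriched 2-fold. It stayed unnamed at a median doublet score of 0.6 or more (10 clusters), or where its leading genes spoke against the name (a cluster of 620 nuclei scoring highest for microglia but led by macrophage genes), and doublets were not otherwise removed. These limits were set after the clusters were seen. Striatal and Pvalb or Sst clusters were subclustered, subclusters took the class with the higher marker score at 3 markers enriched 1.5-fold, with no limit on score or lead, and nuclei left unsplit entered broad classes only, without subclusters at the doublet limit. The members and lists were chosen with earlier results of these data known. Some genes of the lists are not reported here.

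Named were the 8 members, the other subunits and partner lists, with values for genes over 20 CPM or singled out by a count, and per member the 3 genes of highest Pearson r. Intervals were tried on simulated counts with counting error only, which cannot show whether they cover the spread between libraries. Alternatives included TMM factors from edgeR 4.0.16. Python 3.11.15, numpy 2.4.6, scipy 1.17.1 and pandas 2.3.3 were used.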

Additional observations from a re-analysis of the deposited data

Results flagged for a closer look

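The lowest and highest of the 6 libraries were tested with Dixon's criterion in 104 pairs of a subunit gene and a class. It marked 5 pairs, and chance marks about 1 in 20. Gabrb2 in astrocyte-like nuclei of library 4 stood at 211 CPM, against 77.03 to 124 CPM in the other libraries. Gabra2 in OPC-like nuclei of library 4 stood at 183 CPM, against 123 to 144.5 CPM. Library 4 also had the highest microglia-like levels of both genes, 263.5 and 189 CPM, and their part in these values was not tested. Gabrg1 in Drd1 striatal neuron-like nuclei of library 4 stood at 12.8 CPM, against 6.43 to 8.13 CPM. Gabra4 in Sst interneuron-like nuclei of library 2 stood at 92.6 CPM, against 69.01 to 77.2 CPM. Gabrb2 in Adarb2 interneuron-like nuclei of library 6 stood at 830.3 CPM, against 549.8 to 651 CPM.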

How the results depend on the processing

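No paired analysis was possible because no source ties the libraries to numbered mice. Of 40 log2 ratios (8 genes, 5 comparisons), 35 had an interval without 0, and 26 kept direction and side of 0 in every setting run. The mean over nuclei and the median over libraries have no interval and were judged on direction. At resolution 0.5 no interneuron class was named, so that comparison has no value there. The cortical excitatory class had 2971 nuclei at that resolution, against 8545 in the main setting.

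TMM moved all ratios by -0.19 (interneuron-like over cortical), -0.061 (striatal over cortical), 0.22 (astrocyte-like over microglia-like), 0.27 (OPC-like over microglia-like) and 0.048 (OPC-like over astrocyte-like). With TMM and median-of-ratios scaling, interneuron-like over cortical Gabra3 went to -0.037 and -0.022 and Gabrb2 to -0.066 and -0.051, and OPC-like over microglia-like Gabrb1 to 0.11 and 0.074 and Gabra2 to 0.31 and 0.27. At resolution 0.5, OPC-like over microglia-like Gabra2 was 0.12, Gabra5 -0.055 and Gabrb1 0.20, and OPC-like over astrocyte-like Gabra5 was 0.68 and Gabrd 0.31. With every cluster named, interneuron-like over cortical Gabra2 was 0.064 and Gabrd -0.18, astrocyte-like over microglia-like Gabra4 was 0.002 and Gabrd -0.49, and OPC-like over microglia-like Gabra2 was -0.25, Gabrb2 -0.071 and Gabrd -0.35. The causes were not tested. Without the tenth of nuclei of highest doublet score, striatal over cortical Gabra5 was -0.059. Leaving out 1 library at a time gave -0.14 to -0.059 for that ratio, 0.096 to 0.49 for astrocyte-like over microglia-like Gabra4 and -0.48 to -0.29 for OPC-like over microglia-like Gabrd, whose interval left out 0 without library 3.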

Other observations

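Neuroblast-like nuclei had Gabra2 at 318 CPM (305.5 to 330.1) and Gabra5 at 105 CPM (97.96 to 112), above the microglia-like levels in 6 of 6 libraries. Their Gabra5 libraries ranged widely, from 42.9 to 137 CPM with a median of 70.1 CPM. The Drd3-led cluster of 205 nuclei had Gabrb2 at 445.5 CPM (400.4 to 494) and Gabra2 at 275 CPM (239.6 to 314), with Gabra4 at 65.3 CPM. The Vwc2l-led cluster of 422 nuclei had Gabra2 at 72.05 CPM (63.5 to 81.5). Over whole libraries Gabrb1 ranged from 911 to 992 CPM, Gabrg1 from 22.5 to 25.9 CPM and Gabrd from 20.4 to 26.2 CPM.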
